A study of Mus musculus with 9 samples.

Results

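The genes described are the integrins and the focal adhesion adaptors that link them to actin, on arrays of endothelial cells (ECs) sorted from lungs of mice. The members were the measured genes with an integrin alpha or beta chain symbol and a fixed list of talins, kindlins, ILK complex subunits, paxillin and actin linkers. They came to 36 of the 18193 genes named on the array, with 16 alpha chains, 8 beta chains and 12 adaptors. Fermt1, Itga11, Itgad and Ptk2 were not analysed here.

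Integrins are cell surface receptors made of 1 alpha and 1 beta chain, and the pair decides which matrix protein or cell surface ligand is bound. The beta chain tail is held by talin and kindlin, which switch the receptor to its active shape, and paxillin, vinculin, zyxin, alpha-actinin and the complex of ILK, PINCH and parvin then connect it to actin bundles and signalling. In ECs the beta-1 and alpha-v pairs carry attachment to basement membrane and provisional matrix, whereas the beta-2 and beta-7 pairs are known from leukocytes.

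There were 3 groups of 3 arrays, all from NSG mice, an immunodeficient strain without mature lymphocytes, aged 6 to 8 weeks. Metastatic lungs with DC101 came from mice that had received MDA-MB-231-LM2 human breast cancer cells through the tail vein and were dosed on days 21 and 24 with 40 mg/kg of DC101, a rat antibody that blocks VEGFR2. Metastatic lungs with IgG came from mice with the same cancer cells that were given rat IgG on these days, and both groups were harvested on day 25. Healthy lungs came from mice of the same age without cancer cells that were given rat IgG. The labels name biological replicates but not the mice behind them, and p-values therefore describe the spread of these samples, which may be technical in part.

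ECs were taken from whole lungs by flow sorting for CD31 after cells with CD45, CD11b, EpCAM, CD140a, CD140b or the GFP of the cancer cells had been removed. Whole lungs hold vessels both inside and outside nodules, and the arrays do not separate them. Values below are the deposited log2 values, in which a difference of 1 is a 2-fold change. Pecam1, which encodes CD31, had log2 values of 14.06 to 14.21, 14.08 to 14.18 and 14.10 to 14.14 in metastatic lungs with DC101, metastatic lungs with IgG and healthy lungs, and Cdh5, the gene of VE-cadherin, had 13.99 to 14.18 over all arrays. Epcam had log2 values of 7.10 to 7.48 over all arrays, and Ptprc, which encodes CD45, had 8.01 to 8.67 with DC101, 8.17 to 8.61 with IgG and 8.85 to 9.28 in healthy lungs. In a principal component analysis of all genes, DC101 replicates 3 and 1 and healthy replicate 3 each stood apart from their groups on a component with 8.5% to 13.4% of the variance. The 3-prime minus 5-prime difference of the Gapdh control, a sign of RNA quality, was 0.35 to 0.60, 0.47 to 0.57 and 0.69 to 0.77 in these groups, lower in both metastatic groups, and its part in the results below was not tested. The mean log2 value of 11 cell division genes was 9.68 to 10.63, 10.22 to 11.10 and 7.50 to 7.86 in these groups, and that of 16 lung epithelial genes was 8.79 to 9.64, 8.70 to 8.91 and 9.27 to 9.70.

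The first comparison asked how integrin genes differ between metastatic and healthy lungs under IgG. In metastatic lungs the integrin beta-3 gene Itgb3, the alpha-9 gene Itga9 and the alpha-actinin gene Actn1 were higher, by 2.09-, 1.49- and 1.38-fold. The beta-7, alpha-8, alpha-X, beta-2 and beta-5 genes Itgb7, Itga8, Itgax, Itgb2 and Itgb5 were lower, by 2.32-, 2.22-, 1.61-, 1.55- and 1.40-fold. In all, 8 of 36 members passed the test (22.2%), against 6.53% of all genes, with 3 higher (8.33%, against 3.93%) and 5 lower (13.9%, against 2.6%). A gene passed where limma's moderated test gave an adjusted p under 0.05 after Benjamini-Hochberg adjustment over all 18193 genes. Of the 36 members 25 lay above the median signal of genes, and these shares were not matched for signal. In a fit of genes above the median signal alone, 7 members passed, with 711 of those genes higher and 634 lower. For 20 members the 2 sets of arrays had no overlap (55.6%, against 27.6% of all genes), 9 of them higher (against 13% of all genes) and 11 lower (against 14.7%). The median log2 change was -0.08 over the members and -0.02 over all genes, and the median absolute log2 change was 0.23 and 0.15. In a bulk sample, fewer cells of a type and less RNA per cell cannot be told apart.

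**Figure D1:**
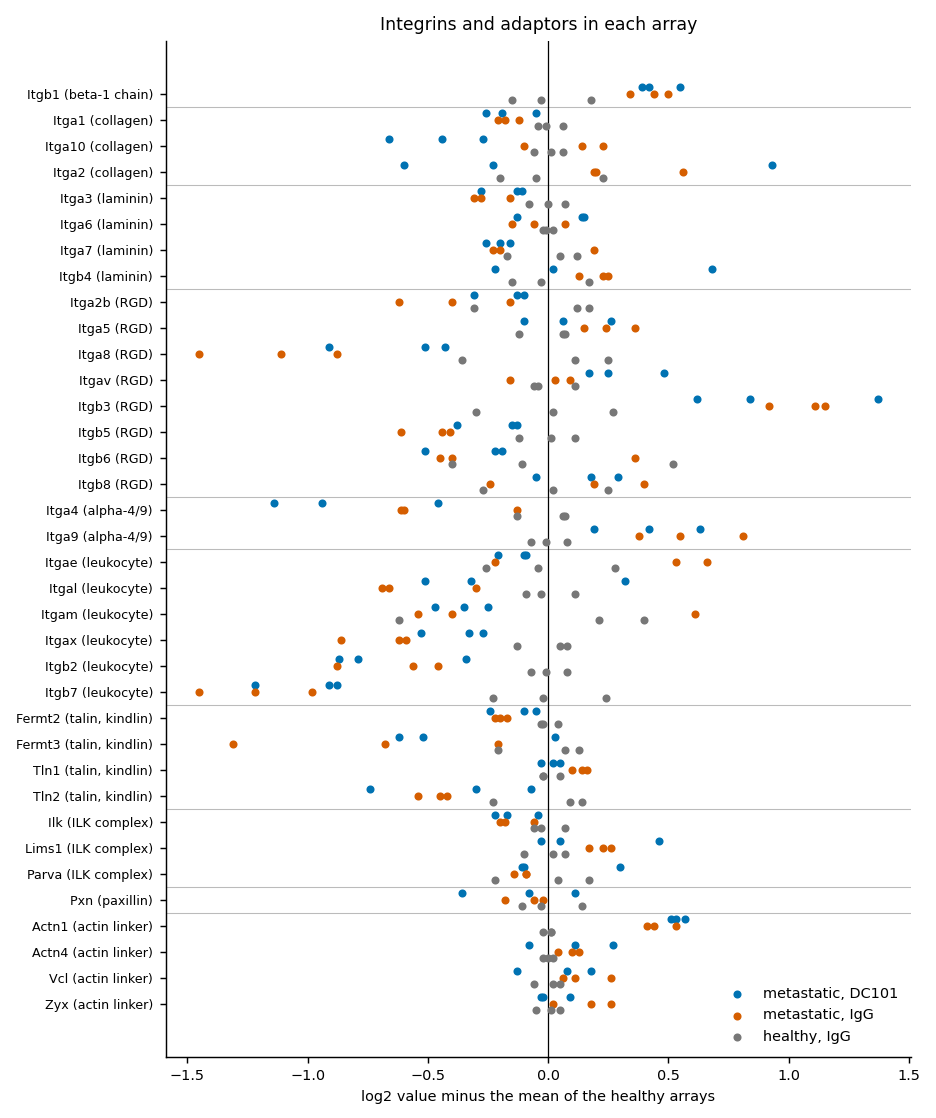
Log2 value of each of the 36 members in each array minus the mean of the healthy arrays of that member (x axis), with members grouped by role down the y axis, and blue, orange and grey points for metastatic lungs with DC101, metastatic lungs with IgG and healthy lungs. Itgb3, Itga9, Itgb1 and Actn1 lie right of the healthy arrays in all 6 metastatic arrays, while Itgb7, Itgax and Itgb2 lie left of them.

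Among the receptors, Itgb1 encodes the beta chain that pairs with most alpha chains of ECs. Its log2 values were 12.68, 12.65 and 12.81 with DC101, 12.70, 12.60 and 12.76 in IgG-treated metastatic lungs, and 12.23, 12.44 and 12.11 in healthy lungs. All 6 metastatic arrays lay above all healthy arrays. The log2 change between metastatic IgG and healthy lungs was 0.43 (SE 0.11, 95% interval 0.16 to 0.69), and the adjusted p of 0.0731 missed the threshold. Itgb1 passed in 2 of 15 alternatives. These left out genes under the median signal (adjusted p = 0.0344) or used a variance trend in limma (adjusted p = 0.0148). With 1 array left out, it passed in 0 of 6 fits (adjusted p 0.0644 to 0.188). The other 5 probe sets of Itgb1 had log2 changes of 0.06 to 0.48.

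The RGD receptors, which recognise the arginine-glycine-aspartate motif of fibronectin, vitronectin and other ligands, had 8 measured members. Of these, 1 rose (3.93% of all genes did) and 2 fell (2.6% of all genes did). Itgb3, the chain of the vitronectin receptor αvβ3 that is known from activated vessels, had log2 values of 10.35, 9.6 and 9.82 with DC101, 10.09, 10.13 and 9.90 in IgG-treated metastatic lungs, and 9.25, 9.0 and 8.68 in healthy lungs. Neither metastatic group overlapped the healthy one. The log2 change of Itgb3 between metastatic IgG and healthy lungs was 1.07 (SE 0.16, adjusted p = 0.0112 by limma), and its other probe set gave 1.1. The call held in 6 of 6 fits with 1 array left out (adjusted p 0.0172 to 0.0421).

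The partner chains of Itgb3 did not pass. Itgav, the alpha-v chain, had log2 values of 10.94, 10.88 and 10.69 in metastatic lungs with IgG and 10.96, 10.79 and 10.81 in healthy lungs. These overlapped, and the log2 change was -0.02 (95% interval -0.27 to 0.23, adjusted p = 0.951). Itga2b, the alpha chain of the platelet fibrinogen receptor αIIbβ3, had log2 values of 8.87, 9.11 and 8.65 in metastatic lungs with IgG and 9.39, 9.44 and 8.96 in healthy lungs. Its log2 change of -0.39 (95% interval -0.79 to 0.01) did not pass (adjusted p = 0.249). The mean log2 value of 10 platelet genes was 7.66 to 8.01 in metastatic lungs under IgG, against 8.72 to 8.81 in healthy lungs, and 4 of them fell (Pf4, Ppbp, Tubb1 and Treml1). Their part in the values of Itgb3 and Itga2b was not tested.

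Itga8 and Itgb5 fell among the RGD receptors. Itga8, whose α8β1 receptor binds nephronectin, fibronectin and tenascin-C and is known from smooth muscle and interstitial cells, had log2 values of 8.27, 7.93 and 8.50 in metastatic lungs with IgG and 9.02, 9.49 and 9.63 in healthy lungs. The groups did not overlap, and the log2 change was -1.15 (SE 0.20, adjusted p = 0.0204 by limma). Its dimmer probe set gave -1.35. The mean log2 value of 16 fibroblast and mural cell genes was 9.50 to 9.89 in IgG-treated metastatic lungs and 9.71 to 9.86 in healthy lungs, with 3 genes higher (Col1a1, Col1a2 and Col3a1) and 4 lower (Dcn, Tcf21, Myh11 and Cnn1), and their part in the change of Itga8 was not tested.

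Itgb5, the chain of a second vitronectin receptor αvβ5, had log2 values of 10.94, 10.74 and 10.91 in metastatic lungs with IgG and 11.46, 11.36 and 11.23 in healthy lungs. Again no arrays overlapped, and the log2 change was -0.49 (SE 0.10, adjusted p = 0.0405 by limma). All 4 probe sets of Itgb5 were lower, with log2 changes of -0.43 to -0.73. The one shown and the one with -0.43 did not pass in the limma fit over all probe sets (adjusted p = 0.058 and 0.0774). Those with -0.47 and -0.73 did (adjusted p = 0.0476 and 0.0278). Itga5, which forms the fibronectin receptor α5β1, had a log2 change of 0.25 (95% interval 0.00 to 0.49) that did not pass (adjusted p = 0.226), with 13.26, 13.14 and 13.05 in metastatic lungs with IgG and 12.78, 12.96 and 12.97 in healthy lungs. Itgb6 and Itgb8, chains of receptors that activate latent TGF-beta, had log2 changes of -0.16 and 0.12, and their groups overlapped.

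**Figure D2:**
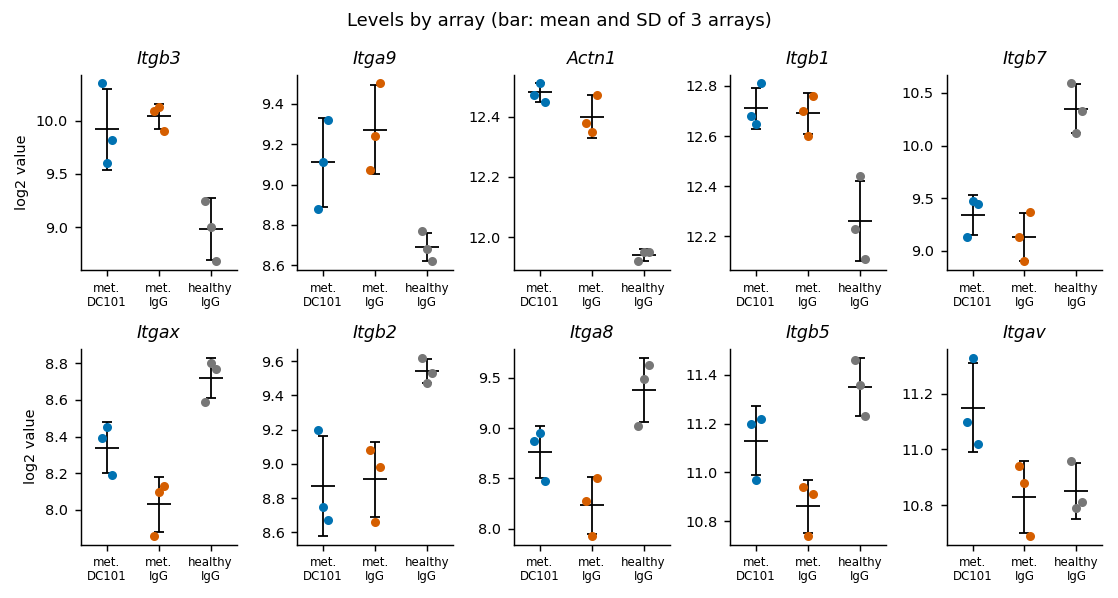
Log2 value (y axis, a separate range for each gene that does not start at 0) of 10 members in each array of metastatic lungs with DC101, metastatic lungs with IgG and healthy lungs from left to right, where bars give the mean and SD (n = 3). Itgb3, Itga9 and Actn1 lie higher in metastatic lungs, Itgb7, Itgax, Itgb2, Itga8 and Itgb5 lie lower with IgG, and Itgb1 and Itgav are drawn as partners of these chains.

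Itga9 forms α9β1, a receptor for tenascin-C and for the EIIIA part of fibronectin that is known from lymphatic valves. Its log2 values were 8.88, 9.11 and 9.32 with DC101, 9.07, 9.24 and 9.50 in IgG-treated metastatic lungs, and 8.77, 8.68 and 8.62 in healthy lungs. The log2 change between metastatic IgG and healthy lungs was 0.58 (SE 0.13, adjusted p = 0.0427 by limma), and the other 2 probe sets gave 0.21 and 0.49. In the limma fit over all probe sets no probe set of Itga9 passed. The adjusted p there was 0.0584 for the one shown and 0.39 and 0.0608 for the other 2. The mean log2 value of 11 lymphatic EC genes was 10.01 to 10.22 in metastatic lungs under IgG, against 8.96 to 9.45 in healthy lungs, with 6 of them higher (Prox1, Mmrn1, Reln, Nts, Tbx1 and Thy1), and its part in the change of Itga9 was not tested. Itga4, the alpha chain of the VCAM-1 receptor α4β1, had a log2 change of -0.45 (95% interval -0.80 to -0.09) that did not pass (adjusted p = 0.147).

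Of the 6 measured leukocyte integrins, Itgb7, Itgax and Itgb2 fell in metastatic lungs (3 of 6, where 2.6% of all genes fell), and Itgal, Itgam and Itgae did not pass. Itgb7, Itgax and Itgb2 each had 1 probe set, so no other could be read beside it. Itgb7, which pairs with alpha-4 and alpha-E in homing of lymphocytes to mucosa, had log2 values of 9.13, 9.47 and 9.44 with DC101, 9.13, 8.90 and 9.37 in IgG-treated metastatic lungs, and 10.59, 10.12 and 10.33 in healthy lungs. Every metastatic array lay below every healthy array. The log2 change between metastatic IgG and healthy lungs was -1.21 (SE 0.16, adjusted p = 0.00823 by limma), and the call held in 6 of 6 fits with 1 array left out (adjusted p 0.0171 to 0.0317).

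Itgax and Itgb2 encode the 2 chains of CD11c/CD18, a receptor of myeloid and dendritic cells, and both fell. Itgax had log2 values of 7.86, 8.10 and 8.13 in metastatic lungs with IgG and 8.59, 8.80 and 8.77 in healthy lungs, and Itgb2 had 9.08, 8.66 and 8.98 against 9.62, 9.47 and 9.53. Neither gene overlapped between the groups. The log2 change was -0.69 for Itgax (SE 0.11, adjusted p = 0.0162 by limma) and -0.63 for Itgb2 (SE 0.13, adjusted p = 0.0318). Itgal, the alpha chain of LFA-1, had a log2 change of -0.55 (95% interval -0.86 to -0.24) that did not pass (adjusted p = 0.0575), with arrays that did not overlap. The other probe set of Itgal had -0.3 and did not pass in the limma fit over all probe sets (adjusted p = 0.47). Itgam, whose product CD11b was a marker for removal in the sort, had log2 values of 6.44, 6.58 and 7.59 in metastatic lungs with IgG and 7.19, 7.38 and 6.36 in healthy lungs, and these overlapped (log2 change -0.11, 95% interval -0.98 to 0.76). Itgae, the alpha-E chain, had a log2 change of 0.33 (95% interval -0.27 to 0.92).

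Other leukocyte genes were read beside these chains. Ptprc had a log2 change of -0.68 (adjusted p = 0.0614 by limma). The mean log2 value of 10 lymphocyte genes, with Ptprc among them, was 7.16 to 7.27 in IgG-treated metastatic lungs and 7.28 to 7.52 in healthy lungs. None of them passed the test, and Ptprc had the largest fall of the list. Of 13 macrophage and monocyte genes, 4 rose (Mrc1, C1qa, C1qb and C1qc) and 1 fell (Chil3), with mean log2 values of 8.92 to 9.11 and 8.78 to 8.93, and of 11 neutrophil genes none passed, with 7.70 to 7.88 and 7.44 to 7.70. The part of such cells in the lower leukocyte integrin values was not tested.

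**Figure D3:**
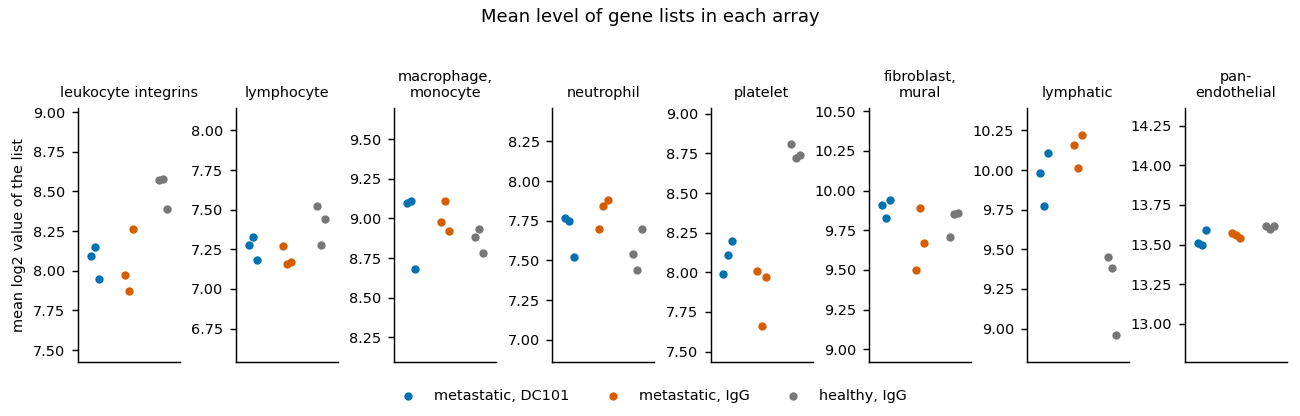
Mean log2 value (y axis, the same span of 1.6 in each panel) of the 6 leukocyte integrins and of 7 lists of cell type markers in each array, with blue, orange and grey points for metastatic lungs with DC101, metastatic lungs with IgG and healthy lungs. The leukocyte integrins lie at 7.95 to 8.15, 7.87 to 8.26 and 8.39 to 8.58 in these groups, platelet genes are lower and lymphatic genes higher in metastatic lungs, and pan-endothelial genes lie at 13.50 to 13.62 in all arrays.

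None of the 3 collagen-binding alpha chains and none of the 4 laminin-binding chains passed, where 6.53% of all genes did. At that share so few genes need give no call. Itga1, the alpha-1 chain that binds collagen IV, had 12.60, 12.63 and 12.69 in metastatic lungs with IgG and 12.77, 12.87 and 12.80 in healthy lungs on the log2 scale. The log2 change was -0.17 (95% interval -0.37 to 0.03), while its other probe set had -0.60 and passed over all probe sets (adjusted p = 0.0381). Itga3, of the receptor for laminins with the alpha-5 chain, had a log2 change of -0.25 (95% interval -0.47 to -0.03, adjusted p = 0.176), and Itga6, the alpha-6 chain of ECs, had -0.04 (95% interval -0.26 to 0.17). Itga2, Itga7, Itga10 and Itgb4 had log2 changes of 0.32, -0.08, 0.09 and 0.20, and all overlapped.

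Of the 12 adaptors 1 passed, Actn1, where 6.53% of all genes passed. Actn1, the alpha-actinin that crosslinks actin at adhesions and stress fibres of non-muscle cells, had log2 values of 12.47, 12.51 and 12.45 with DC101, 12.38, 12.35 and 12.47 in IgG-treated metastatic lungs, and 11.92, 11.95 and 11.95 in healthy lungs. The groups were tight and did not overlap. The log2 change between metastatic IgG and healthy lungs was 0.46 (SE 0.08, adjusted p = 0.0226 by limma), and its other 2 probe sets had 0.53 and 0.89. The adjusted p was 0.0546 to 0.0772 with 1 array left out, above the threshold in 6 of 6 fits. Actn4, its close paralog, had a log2 change of 0.09 (95% interval -0.10 to 0.28).

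None of the 4 talins and kindlins passed, where 6.53% of all genes did, and so few genes need give no call at that share. Tln1, the talin of most cells, had a log2 change of 0.13 (95% interval -0.06 to 0.32), and Tln2 had -0.47 (95% interval -0.75 to -0.19, adjusted p = 0.0694). Fermt3, the kindlin of blood cells, had log2 values of 11.16, 10.69 and 10.06 in metastatic lungs with IgG and 11.50, 11.44 and 11.16 in healthy lungs. These touched at 11.16, and the log2 change of -0.73 (95% interval -1.35 to -0.10) did not pass (adjusted p = 0.172), whereas its mean over 4 probe sets did (adjusted p = 0.037). Fermt2, the kindlin of non-blood cells, had a log2 change of -0.19 (adjusted p = 0.228).

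In the ILK complex, Ilk and Parva had log2 changes of -0.14 and -0.10. Lims1, which encodes PINCH1, had 0.22 (95% interval 0.01 to 0.43, adjusted p = 0.213), but its other 4 probe sets had 0.37 to 0.75, and the one with 0.65 passed over all probe sets (adjusted p = 0.0462). Pxn, Vcl and Zyx, the genes of paxillin, vinculin and zyxin, had log2 changes of -0.09, 0.14 and 0.15. Adaptors thus spanned -0.73 to 0.46, and integrins -1.21 to 1.07.

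**Figure D4:**
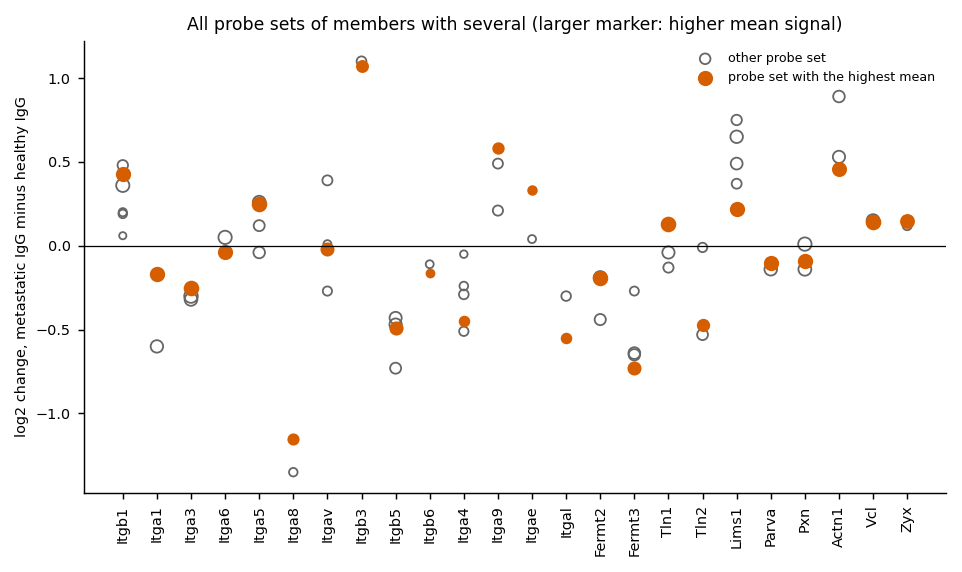
Log2 change between metastatic lungs with IgG and healthy lungs (y axis) for every probe set of the 24 members with several, with the probe set of highest mean filled in orange and the others as open circles that grow with mean signal. Both probe sets of Itgb3 lie above 1 and all 4 of Itgb5 lie below 0, while those of Lims1 run between 0.22 and 0.75.

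With 1 of the 6 arrays left out in turn, 2 to 6 members passed, and 2 to 5 of these were among the 8 above. The others were Tln2 without healthy replicate 3, Itga4 without metastatic IgG replicate 1 and Itgal without metastatic IgG replicate 2. Itgb5 passed in none of these fits, Itga9 and Itgb2 only without metastatic IgG replicate 1 (adjusted p 0.0418 to 0.116 and 0.0438 to 0.109 over the 6 fits), Itga8 only without healthy replicate 1 or metastatic IgG replicate 3 (0.0241 to 0.0666), and Itgax in the 4 fits that kept healthy replicates 2 and 3 (0.0364 to 0.0563 over all 6). Without limma's moderation of the variances, Actn1 alone passed.

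Over all 86 probe sets of the members, 4 were called higher and 7 lower in a fit over 34945 probe sets, in which 4.67% were called. No member had probe sets called in opposite directions. The alpha and beta chains were also read as pairs. Of 24 known heterodimers 22 had both chains measured, and both chains fell for 1 of them, αXβ2. In 9 pairs 1 chain passed, in 12 none did, and in none did the chains pass in opposite directions. These counts are not separate results, since pairs share chains. Itgb1, which did not pass, belonged to many of the pairs, and Itgb2, Itgb3 and Itgb7 also recurred. αvβ3, αvβ5, α8β1, α9β1 and α4β7 were pairs in which 1 chain passed and the partner did not.

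Ligands of these receptors were read from a list chosen with earlier results of these data known, so its counts are descriptive and no independent support. Of 43 measured ligand genes, 13 were higher and 2 lower in metastatic lungs with IgG, where 3.93% of all genes were higher and 2.6% lower. Lamb1 and Lama1, chains of laminin-111, had log2 changes of 2.42 (SE 0.12) and 2.11 (SE 0.19), Tnc, the tenascin-C gene, had 2.24 (SE 0.33), and Fn1, the fibronectin gene, had 1.69 (SE 0.18), with adjusted p of 0.000227, 0.00197, 0.0115 and 0.00338. Vtn, the vitronectin gene, was lower by 1.15 on the log2 scale (adjusted p = 0.0341). Col1a1 and Col1a2, which are also in the fibroblast and mural cell list above, were among the higher ligand genes. The part of such cells in the ligand changes was not tested. Of the 8 chains of tenascin-C receptors, Itgb3 and Itga9 were higher and Itga8 lower. Of the 4 chains that bind laminin-111 (Itga6, Itga7, Itgb1 and Itgb4), none passed (6.53% of all genes did), with log2 changes of -0.08 to 0.43.

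Other focal adhesion genes gave 9 calls in 69 measured (6.53% of all genes were called), with 4 higher and 5 lower (3.93% and 2.6% of all genes). Fblim1, the filamin-binding migfilin, Pdlim1, a PDZ and LIM protein of stress fibres, Sdc4, the syndecan that acts with α5β1, and Flna, filamin A, were higher, with log2 changes of 0.75, 0.49, 0.48 and 0.40. Kank4, a talin-binding KANK protein, Lims2, which encodes PINCH2, Arhgef6, a PAK-binding exchange factor, Tns2, a tensin, and Cd9, a tetraspanin that binds integrins, were lower, with -0.92, -0.80, -0.65, -0.56 and -0.39. Lims2 fell (adjusted p = 0.00276 by limma) while its paralog Lims1 did not.

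The second comparison asked what DC101 did in metastatic lungs. No member passed, and nor did any of the 18193 genes (0% called by limma), under the main settings. No member passed under any of the alternatives either. At an unadjusted p under 0.05, 4 of 36 members stood apart (11.1%, against 6.65% of all genes, 1209 genes). They were Itga10, with a log2 change of -0.54 (95% interval -0.88 to -0.21), Itga8, with 0.53 (0.09 to 0.97), Itgax, with 0.31 (0.02 to 0.61), and Itgav, with 0.31 (0.01 to 0.61). The lowest adjusted p of a member was 0.737.

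Itgav had separate arrays in the 2 groups, at 11.10, 11.33 and 11.02 with DC101 and 10.94, 10.88 and 10.69 with IgG on the log2 scale. The other probe sets of Itgav differed in direction, with log2 changes of -0.22 to 0.39. Itga10, a collagen receptor chain known from cartilage, had 8.25, 8.08 and 7.86 with DC101 and 8.75, 8.66 and 8.42 with IgG. For 5 members the DC101 and IgG arrays had no overlap (13.9%, against 12.4% of all genes), the others being Itgax, Itgb5 and Tln1. Itga10 was named after its values were seen, as were Itga4, Itgal, Itgae, Itgb4, Itgb6, Itgb8, Itga7, Tln2, Fermt2, Ilk, Parva, Vcl and Zyx.

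**Figure D5:**
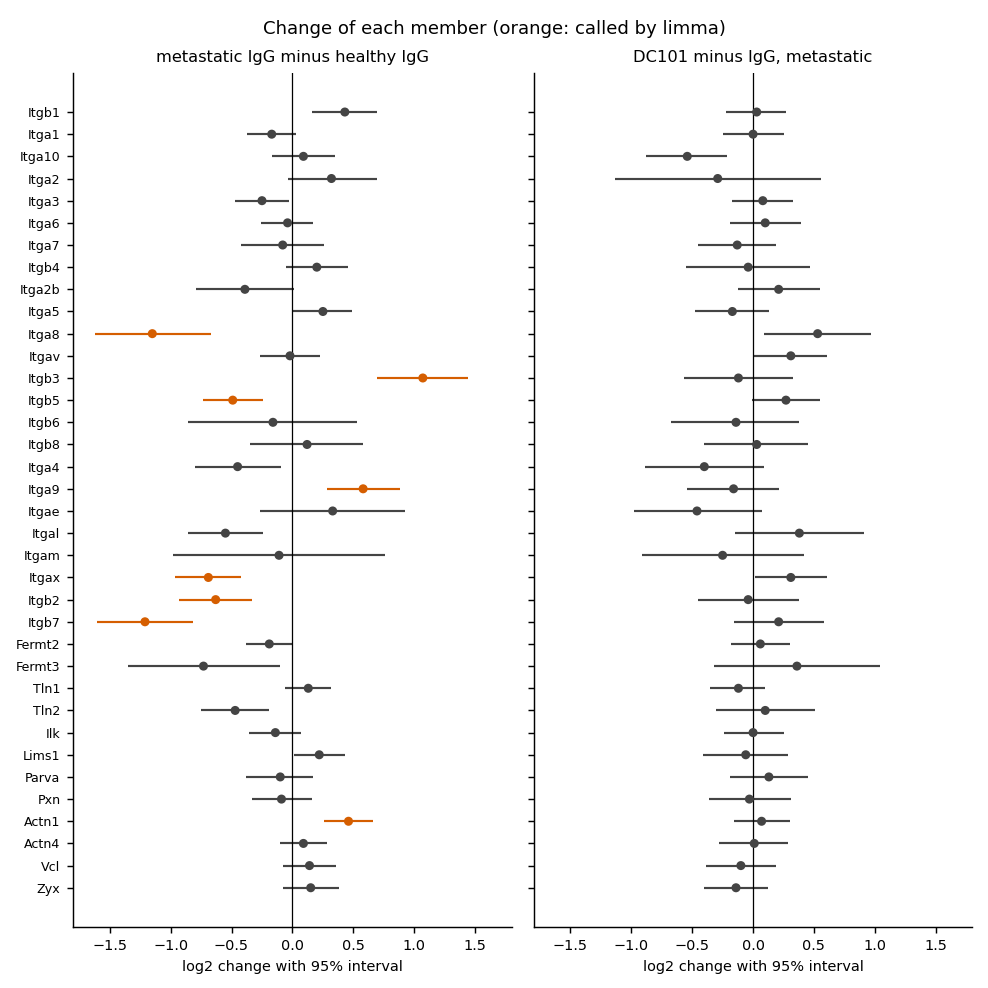
Log2 change of each member with its 95% interval (x axis) between metastatic lungs with IgG and healthy lungs (left) and between DC101 and IgG in metastatic lungs (right), with orange for members past the limma test. Of 36 members, 8 are orange on the left and none on the right, where log2 changes run between -0.54 and 0.53.

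The intervals show what the arrays could resolve under DC101. For Itgb3 the log2 change between DC101 and IgG was -0.12 (95% interval -0.57 to 0.33), for Itgb7 0.21 (-0.16 to 0.58), for Itgb1 0.03 (-0.22 to 0.27) and for Actn1 0.07 (-0.16 to 0.30). For Itga9 it was -0.16 (-0.54 to 0.21), for Itgb2 -0.04 (-0.45 to 0.38) and for Itgb5 0.27 (-0.01 to 0.55). The interval of Itga2 was the widest, from -1.13 to 0.56, and DC101 replicate 3 held its high value, at 11.42 against 10.26 and 9.89 in the other DC101 arrays. A p that missed the threshold does not show that DC101 left these genes unchanged.

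The third comparison set metastatic lungs with DC101 against healthy lungs, which are the same 3 healthy arrays as above. Here 2 of 36 members passed (5.56%, against 2.42% of all genes), with 1 higher (2.78%, against 1.58%) and 1 lower (2.78%, against 0.835%). Itgb7 fell with a log2 change of -1.0 (SE 0.16, 2.0-fold, adjusted p = 0.0246 by limma), and Actn1 rose with 0.54 (SE 0.09, 1.45-fold, adjusted p = 0.0347). For 15 members the DC101 and healthy arrays had no overlap (41.7%, against 23.1% of all genes). With 1 array left out in turn, Actn1 passed in none of the 6 fits (adjusted p 0.0607 to 0.13) and Itgb7 only without healthy replicate 2 (0.0443 to 0.0881 over the 6), so neither passed without DC101 replicate 1, DC101 replicate 3 or healthy replicate 3, which stood apart. Itgb2 passed without DC101 replicate 1 (adjusted p = 0.0355) and Itga4 without DC101 replicate 2 (adjusted p = 0.0294).

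Other members of the first comparison had these values against healthy lungs under DC101. Itgb3 had a log2 change of 0.95 (95% interval 0.42 to 1.47, adjusted p = 0.0884), Itgb2 -0.67 (-1.03 to -0.31, adjusted p = 0.0844), Itga8 -0.62 (-1.08 to -0.16, adjusted p = 0.174), Itga9 0.42 (0.10 to 0.73, adjusted p = 0.179), Itgax -0.38 (-0.65 to -0.10, adjusted p = 0.173) and Itgb5 -0.22 (-0.50 to 0.06, adjusted p = 0.415). All 6 kept separate arrays from the healthy ones. The other probe sets of Itga9 had log2 changes of -0.03 and 0.5 here. Itga4 had log2 values of 7.46, 8.14 and 7.66 with DC101 and 8.66, 8.67 and 8.47 in healthy lungs, with a log2 change of -0.85 (95% interval -1.27 to -0.42, adjusted p = 0.0674). Of the 43 ligand genes, 9 were higher and 1 lower under DC101 (1.58% and 0.835% of all genes). Col1a1 was at 2.03 (SE 0.22), Tnc at 1.98 (SE 0.18) and Fn1 at 1.85 (SE 0.12) on the log2 scale. The part of fibroblasts and mural cells in these ligand changes was not tested. None of the 69 other focal adhesion genes passed.

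Promoter windows of members that moved in the same direction were read to show the DNA in front of these genes. They span 250 bases before and 50 bases after the annotated start in RefSeq (build GRCm38.p6), and windows were found for 26 of 36 members and for 6 of the 8 that passed in metastatic lungs with IgG. Shown are 2 that rose (Itga9 and Actn1) and 2 that fell (Itgax and Itgb7), 5′ to 3′ on the strand of the gene. Capitals mark matches, on both strands, to CGGAAG (ETS), TGANTCA (AP-1), GGGCGG (SP/KLF), CACGTG (E-box), TATAAA (TBP) or TGTGGT (RUNX), and no matches overlap in these windows.
Itga9 (chr9:118711442-118711741, plus strand): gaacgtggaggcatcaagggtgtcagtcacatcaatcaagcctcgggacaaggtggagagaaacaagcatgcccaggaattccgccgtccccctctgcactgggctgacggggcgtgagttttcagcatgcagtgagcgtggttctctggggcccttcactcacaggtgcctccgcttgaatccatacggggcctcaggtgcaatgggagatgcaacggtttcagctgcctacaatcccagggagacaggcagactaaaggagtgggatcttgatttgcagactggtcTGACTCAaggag
Actn1 (chr12:80260314-80260613, minus strand): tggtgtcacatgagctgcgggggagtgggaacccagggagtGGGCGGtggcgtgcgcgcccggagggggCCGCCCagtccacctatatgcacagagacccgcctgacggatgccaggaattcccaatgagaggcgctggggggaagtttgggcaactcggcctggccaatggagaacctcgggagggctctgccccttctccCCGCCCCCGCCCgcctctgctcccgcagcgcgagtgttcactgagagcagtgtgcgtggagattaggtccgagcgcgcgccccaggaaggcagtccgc
Itgax (chr7:128129300-128129599, plus strand): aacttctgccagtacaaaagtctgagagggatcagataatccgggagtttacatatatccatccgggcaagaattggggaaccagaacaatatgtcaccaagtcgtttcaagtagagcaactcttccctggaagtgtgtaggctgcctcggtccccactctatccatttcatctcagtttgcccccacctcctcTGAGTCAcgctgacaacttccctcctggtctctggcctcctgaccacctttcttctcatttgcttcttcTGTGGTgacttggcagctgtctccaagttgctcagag
Itgb7 (chr15:102231886-102232185, minus strand): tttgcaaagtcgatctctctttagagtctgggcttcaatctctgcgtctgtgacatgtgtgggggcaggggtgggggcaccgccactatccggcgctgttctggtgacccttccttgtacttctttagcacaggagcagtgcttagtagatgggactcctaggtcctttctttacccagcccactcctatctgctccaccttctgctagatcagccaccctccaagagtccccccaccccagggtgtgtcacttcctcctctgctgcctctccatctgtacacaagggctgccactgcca

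The Itga9 window held 1 AP-1 match and the Itgax window 1 AP-1 and 1 RUNX match. The Actn1 window held 4 SP/KLF matches in 68.3% GC, and the Itgb7 window held none of these motifs in 56.3% GC. Among windows not shown, that of Itgb5, which fell, held 3 SP/KLF matches in 65.7% GC. That of Itga8, which also fell, held none of these motifs in 59.0% GC. Of all 32544 promoter windows of this length, 7.79% held an AP-1 match, 35.9% an SP/KLF match and 16.7% a RUNX match, and the median GC content was 53.0%. The matches are letters in a window and were not tested as binding sites.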

How the data were processed

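Per the labels and the study's methods, RNA of sorted lung ECs was amplified with a 3-prime in vitro transcription kit and hybridised to Affymetrix arrays of the mouse genome. The authors normalised the raw files by robust multiarray averaging (RMA), and the deposited values were taken as log2, which RMA returns, since the table names no base. RMA makes the arrays alike in distribution, so a change of total RNA cannot be seen.

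Probe sets with 1 gene symbol (34945 of 45101) were kept, and each gene was represented by the probe set of highest mean over the 9 arrays, with no filter on dim genes. Of the 36 members, 25 lay above the median signal of genes. Each comparison used its own 6 arrays with the linear models and two-sided moderated test of limma 3.58.1 (R 4.3.3), and Benjamini-Hochberg adjustment ran over 18193 genes. Intervals are 95% intervals of limma, and the number of arrays limits the precision. The test was checked on simulated data. The genes named were every member past the test, and those with the highest mean or the largest change in each role group. To these came 12 fixed genes, of which Ptk2 was not analysed. Members and lists were chosen with earlier results of these data known. Alternatives changed the fit, the probe set rule, the filter, the scaling or the arrays used.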

Additional observations from a re-analysis of the deposited data

How the results depend on the processing

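The direction of the 8 members that passed between metastatic IgG and healthy lungs was the same under every alternative run, and the calls were not. Most alternatives could not turn the direction. The block, the variance settings, the fit of all 9 arrays and the signal filter leave the log2 change as it is. Groups without overlap also keep their sign when an array is left out or weighted. Only the probe set rules and the scaling could have turned it. With the replicate block, 1 member was higher and 3 lower, against 3 and 5, and over all genes 464 and 225, against 715 and 473. The labels do not say whether the numbers pair the samples. Same-numbered arrays had deviations correlated at -0.054 to 0.084, and differently numbered ones at -0.14 to 0.098. These values show no sign of pairing but, with so few arrays, cannot settle it. The block left Itga8, Itgax, Itgb3 and Itgb7. Without variance moderation 1 member was higher and 0 lower (all genes 232 and 144), and a variance trend gave 793 genes lower. With 1 array left out, 1 to 2 members were higher and 1 to 4 lower (all genes 382 to 516 and 174 to 250).

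Between DC101-treated metastatic lungs and healthy lungs, the higher and lower counts of members were 1 and 1. They were 2 and 2 with all 9 arrays in 1 fit (265 genes lower), 0 and 0 with the replicate block (44 genes lower), 0 and 2 with the mean of all probe sets, 2 higher with a variance trend, 2 lower with array weights, and 0 lower without variance moderation (11 genes higher and 3 lower). With 1 array left out, 0 were higher and 0 to 1 lower (all genes 92 to 280 and 18 to 81). The cause of these shifts was not tested, except that leaving out an array leaves fewer samples. No gene passed between DC101 and IgG under any alternative.

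Members that changed sign did not pass in the comparison concerned. With the mean of all probe sets, Itgav had 0.02 and Tln1 -0.01 between metastatic IgG and healthy lungs, Actn1 -0.06, Itga6 -0.01 and Pxn 0.04 between DC101 and IgG, and Itga5 -0.09, Parva -0.11 and Tln1 -0.02 between DC101 and healthy lungs. With cyclic loess scaling Itgav had 0.01 in the first comparison, and with array weights Actn4 had -0.04 and Itgb2 0.05 between DC101 and IgG, and Itga2 -0.04 and Parva -0.01 between DC101 and healthy lungs. With 1 array left out, Itga6 ran between -0.10 and 0.01, Itgam between -0.47 and 0.11, Itgav between -0.07 and 0.06, Itgb6 between -0.43 and 0.10 and Itgb8 between -0.03 and 0.29 for metastatic IgG against healthy lungs. For DC101 against IgG, Actn4 ran between -0.08 and 0.09, Itga2 between -0.74 and 0.03, Itgam between -0.46 and 0.11, Itgb1 between -0.02 and 0.06, Itgb2 between -0.20 and 0.07, Itgb3 between -0.33 and 0.04, Lims1 between -0.21 and 0.04, Pxn between -0.14 and 0.10, Itga7 between -0.20 and 0.01, Itgb4 between -0.30 and 0.15, Itgb6 between -0.29 and 0.12, Itgb8 between -0.15 and 0.17, and Tln2 between -0.05 and 0.29. For DC101 against healthy lungs, Itga2 ran between -0.41 and 0.35, Itga5 between -0.02 and 0.16, Pxn between -0.22 and 0.01, Tln1 between -0.01 and 0.03, Itgae between -0.26 and 0.01, Itgal between -0.41 and 0.01, Itgb4 between -0.10 and 0.35, Parva between -0.11 and 0.11, Vcl between -0.03 and 0.13, and Zyx between -0.03 and 0.04.

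Of the 36 members, 11 lay below the median signal of genes, where array values understate changes.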
